A study of Homo sapiens with 4 samples.

Results

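DDIT4, the 3 sestrins (SESN1, SESN2 and SESN3) and 6 further regulators of mTORC1 (TSC1, TSC2, RHEB, RPTOR, DEPTOR and AKT1S1) were taken by gene symbol from the RNA-seq tables, 10 genes of the 15562 listed. They were compared between H1975 cells kept in hypoxia and H1975 cells kept in normoxia. H1975 is an established human cell line from a lung adenocarcinoma, given as wild type in genotype for both groups. Cells of both groups were grown in RPMI medium with 10% fetal bovine serum and 1% penicillin-streptomycin at 37 °C. The hypoxia group spent 24 h in a gas mixture of 1% O2, 5% CO2 and 94% N2. The normoxia group was kept for 24 h in a humidified atmosphere with 5% CO2. Each group had 1 RNA-seq library, with 18943320 counts in hypoxia and 17643836 in normoxia. The spread between cultures is therefore unknown, no test of the condition was possible, and each ratio below carries the 95% interval that counting error alone allows. The reads carry no molecular identifiers and may repeat a molecule, so these intervals are too narrow. In such bulk libraries a lower count can come from fewer cells of a kind or from less RNA per cell, and these cannot be told apart.

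The label was checked on marker transcripts. The epithelial keratin KRT7 had 407 FPKM in hypoxia and 549 in normoxia, and the lung lineage factor NKX2-1 had 34.8 and 32.3. Of the 9 epithelial and lung markers 8 passed the filter, with a summed level of 4710 FPKM in hypoxia and 5190 in normoxia; the lung proteins NAPSA, with 106 counts in hypoxia and 90 in normoxia, and SFTPB, with 14 in each, were low. The 5 fibroblast markers summed to 20.4 FPKM in hypoxia and 19.9 in normoxia, most of it COL1A1 with 1800 and 1579 counts. The 4 endothelial markers summed to 1.08 and 1.25 FPKM, with CDH5 at 57 and 73 counts, PECAM1 at 40 and 24, KDR at 5 and 6 and VWF at 2 and 0. Of the leukocyte markers, the pan-leukocyte PTPRC had 2 counts in hypoxia and 0 in normoxia, CD14 had 315 and 402, at -0.44 (-0.66 to -0.23) on the log2 scale, and CD68 had 4148 and 3849. Their summed level was 139 FPKM in hypoxia and 143 in normoxia, nearly all of it CD68 and CD14. On the log2 scale the intervals of 4 of the 8 epithelial and lung markers lay below 0 and of 1 above, with KRT7 the lowest. Of all genes past the filter 14.0% had an interval below 0 and 15.0% above. None of the markers named for any cell type was called, and their part in the results below was not tested. The hypoxia label was checked on 20 known target transcripts of the hypoxia-inducible factors (HIF). All 20 were above 0 on the log2 scale, 19 with their whole interval, the exception being ADM.

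mTORC1 is a protein kinase complex on the lysosome that promotes protein synthesis and growth when amino acids, growth factors, energy and oxygen are at hand. Its direct activator is the small GTPase RHEB, which the TSC complex (TSC1 and TSC2) switches off. DDIT4, also called REDD1, is the classical link from low oxygen to this pathway: it is a HIF target whose protein acts through the TSC complex. The sestrins are stress-induced proteins that restrain the GATOR2 complex in the amino acid branch, and SESN2 is a leucine sensor. RPTOR is the subunit that recruits mTORC1 substrates, while DEPTOR and AKT1S1 (PRAS40) bind the complex and inhibit it. Most of this control acts on proteins and their phosphorylation, which RNA-seq does not measure.

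Start-site windows from RefSeq (GRCh38.p14), 250 bases before to 50 after the annotated start, were found for 8 of the 10 genes, in 11 windows. They were searched on both strands for the HIF core, ACGTG or GCGTG, whose hits are in capitals (as CACGT or CACGC where the core lies on the opposite strand). The windows shown are those of DDIT4, the gene with the highest ratio, of TSC1, the next highest, and of TSC2 and RHEB, which also hold ACGTG but had ratios near 1.
DDIT4 (chr10:72273674-72273973, plus strand): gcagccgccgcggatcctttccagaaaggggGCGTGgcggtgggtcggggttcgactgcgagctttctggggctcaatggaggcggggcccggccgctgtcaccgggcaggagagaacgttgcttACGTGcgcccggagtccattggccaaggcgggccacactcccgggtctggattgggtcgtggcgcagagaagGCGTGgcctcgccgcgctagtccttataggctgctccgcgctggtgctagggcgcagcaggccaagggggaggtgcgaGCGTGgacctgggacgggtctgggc
TSC1 (chr9:132944567-132944866, minus strand): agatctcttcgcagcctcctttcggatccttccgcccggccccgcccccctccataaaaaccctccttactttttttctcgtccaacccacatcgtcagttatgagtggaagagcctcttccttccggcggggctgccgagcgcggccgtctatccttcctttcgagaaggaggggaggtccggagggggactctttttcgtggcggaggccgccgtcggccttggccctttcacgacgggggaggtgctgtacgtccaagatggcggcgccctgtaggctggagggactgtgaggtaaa
TSC2 (chr16:2047735-2048034, plus strand): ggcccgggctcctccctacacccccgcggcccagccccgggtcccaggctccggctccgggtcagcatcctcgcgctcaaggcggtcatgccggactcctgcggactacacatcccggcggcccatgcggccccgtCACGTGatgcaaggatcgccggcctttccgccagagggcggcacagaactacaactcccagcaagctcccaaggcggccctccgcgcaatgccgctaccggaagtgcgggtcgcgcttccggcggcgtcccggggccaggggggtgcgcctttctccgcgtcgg
RHEB (chr7:151519846-151520145, minus strand): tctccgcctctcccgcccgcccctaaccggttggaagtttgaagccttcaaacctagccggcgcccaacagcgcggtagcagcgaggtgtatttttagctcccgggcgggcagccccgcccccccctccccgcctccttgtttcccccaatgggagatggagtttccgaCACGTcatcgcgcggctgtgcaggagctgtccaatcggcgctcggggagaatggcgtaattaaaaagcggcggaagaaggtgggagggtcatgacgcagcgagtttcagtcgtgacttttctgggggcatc

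The DDIT4 window held 4 cores, 1 ACGTG and 3 GCGTG, all on the strand of the gene, with first bases at positions -219, -125, -53 and 26 counted from the start site. The TSC2 window held the palindrome CACGTG, which counts as ACGTG on both strands and overlaps itself there. The RHEB window held 1 ACGTG on the opposite strand, and RPTOR had 2 GCGTG. Of the 3 SESN1 windows 1 held a single GCGTG, and the windows of SESN2, SESN3 and TSC1 held neither core. The TSC1 window ends at 132944866, inside the gene, which reaches 132945378, so its outermost start was not searched. Among all 35116 RefSeq windows of this length, 48.4% held a core of either kind, 21.4% held ACGTG, and 4.4% held 4 or more cores. The ATF4 element TGATGNAA was found in a TSC2 window alone among these 11, where it overlaps the end of CACGTG, and in 3.62% of all windows. These matches describe letters, not bound sites. Their part in the ratios was not tested.

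DDIT4 was the one gene of the 10 that was called higher in hypoxia. DDIT4 (Entrez 54541, chromosome 10, 72273924 to 72276036) had 2793 counts in hypoxia and 1452 in normoxia. Per length, its level was 84.5 FPKM in hypoxia and 47.2 FPKM in normoxia. After TMM scaling its ratio was 1.80 (1.69 to 1.92), a log2 ratio of 0.85 (0.76 to 0.94), and this interval did not overlap that of any of the other 9. By FPKM the DDIT4 transcript stood above 94.9% of the listed genes in hypoxia and above 90.1% in normoxia. It was thus among the abundant transcripts of these cells in both libraries.

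The rule for a call was a 1.5-fold or larger ratio in either direction together with a counting interval that excluded 1. By this rule 1 of the 10 genes was called higher and 0 lower, and the rule called 1.21% of the 12725 genes past the expression filter higher and 1.12% lower. With a ratio of 2 in place of 1.5, 0 of the 10 were called, against 0.472% of all genes higher and 0.440% lower. Among the 10739 genes counted at least 100 times in each library the 1.5-fold rule called 0.279% higher and 0.196% lower. In that set DDIT4 had the 7th highest log2 ratio.

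The position of DDIT4 was also read among genes with many counts and, separately, among short genes. Of the 4241 genes counted at least 1000 times in each library, 2 had a higher log2 ratio than DDIT4. These were NDRG1 at 1.32 (1.25 to 1.40) and IGFBP3, an insulin-like growth factor binding protein, at 1.04 (0.94 to 1.15). Of the 1735 genes shorter than 2000 bases and counted at least 100 times in each library, 0 had a higher ratio than DDIT4, whose length in the FPKM table is 1744 bases. The intervals of DDIT4 and of the glucose transporter SLC2A1, at 0.71 (0.61 to 0.81), overlapped.

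By nearness of the log2 ratio over the 2 libraries, the 6 genes most like DDIT4 held 4 with a near-identical copy. Above it stood ADAM8, a membrane metalloprotease, 0.02 higher on the log2 scale, and CP, the copper-carrying plasma ferroxidase, 0.01 higher. ADAM8 had 757 counts in hypoxia and 388 in normoxia, and CP had 739 and 381. The others, GTPBP6-2, CD99-2, EIF3CL and C4A, share sequence with another copy of the gene, so their values are uncertain. DDIT4 had more counts in both libraries than any of these 6.

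**Figure D1:**
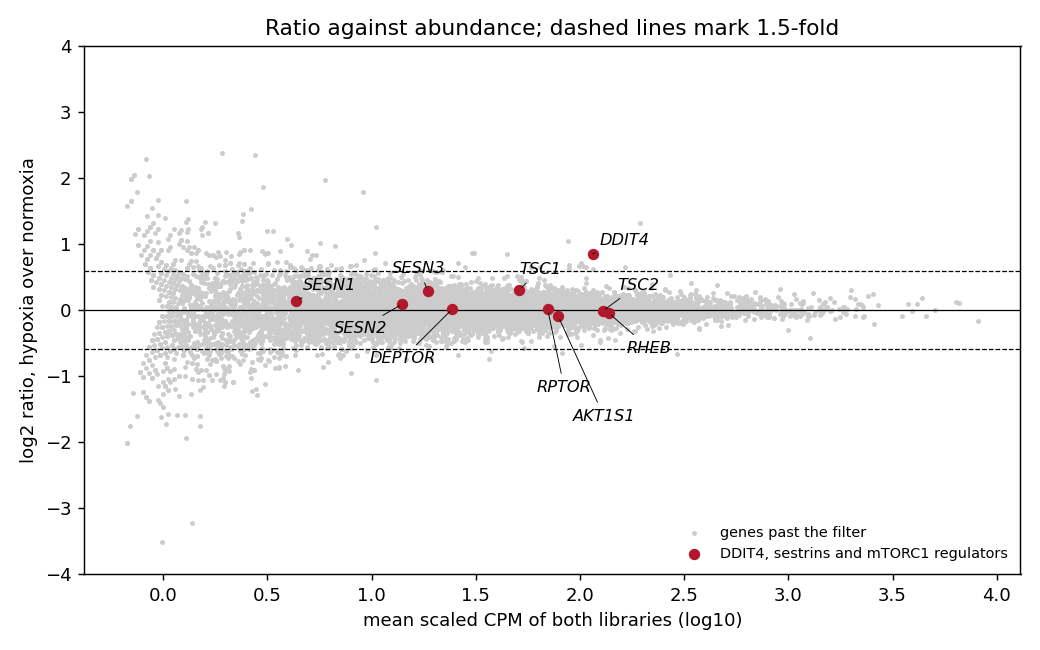
Each point is a gene past the expression filter, placed by its mean scaled CPM over both libraries (x axis, log10) and its log2 ratio of hypoxia over normoxia (y axis). The dashed lines mark a ratio of 1.5 either way. DDIT4, at 0.85, lies above the upper line, and the 9 other genes, in red with it, lie between the lines at -0.09 to 0.30.

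The sestrins were expressed at low levels, and none was called. SESN2 (chromosome 1), which responds to ATF4 and senses leucine, had 274 counts in hypoxia and 241 in normoxia. Its ratio was 1.07 (0.893 to 1.27), and its interval holds 1. SESN3 (chromosome 11), known as a target of FOXO factors, had 387 counts in hypoxia and 297 in normoxia, giving a ratio of 1.22 (1.05 to 1.43). SESN1 (chromosome 6), also a FOXO target, had 86 and 73 counts, a ratio of 1.10 (0.799 to 1.53). The interval of SESN1 holds both 1 and 1.5, whereas those of SESN2 and SESN3 end below 1.5.

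On the FPKM scale the sestrins kept a fixed order in both libraries. SESN2 stood at 4.18 FPKM in hypoxia and 3.95 in normoxia, SESN3 at 2.05 and 1.69, and SESN1 at 0.745 and 0.679. SESN2 made up 59.9% of the summed sestrin FPKM in hypoxia and 62.5% in normoxia, and SESN3 29.4% and 26.8%. The sum was 6.97 FPKM in hypoxia and 6.31 in normoxia. The DDIT4 level was 12.1 times this sum in hypoxia and 7.47 times in normoxia. Within the family no shift exceeded counting error: relative to SESN2, SESN3 changed 1.15-fold (0.905 to 1.45) and SESN1 1.04-fold (0.714 to 1.51). Both intervals hold 1, and they are too wide to show that the shift was small.

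The subunits of the TSC complex had different ratios. TSC1 (chromosome 9, 132891349 to 132945378), the subunit that stabilizes TSC2, had 1063 counts in hypoxia and 809 in normoxia, giving a ratio of 1.23 (1.12 to 1.35). TSC2 (chromosome 16, 2047985 to 2089491), the subunit that acts on RHEB, had 2408 and 2286 counts, a ratio of 0.988 (0.933 to 1.05). Neither was called, although the TSC1 interval lay above 1. Taken as a ratio of TSC1 to TSC2, which is free of the scaling between libraries, the FPKM quotient was 0.334 in hypoxia and 0.268 in normoxia. This quotient was 1.25-fold higher in hypoxia (1.12 to 1.39, exact conditional interval of the odds ratio). TSC1 thus stood at the lower level of the pair in both libraries. The third subunit, TBC1D7, had 8 counts in hypoxia and 5 in normoxia and did not pass the filter.

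RHEB, the GTPase on which the TSC complex acts, lay next to DDIT4 in abundance. RHEB (chromosome 7) had 2552 counts in hypoxia and 2465 in normoxia, giving a ratio of 0.971 (0.918 to 1.03). On the FPKM scale RHEB was at 50.5 in hypoxia and 52.3 in normoxia. DDIT4 therefore stood above RHEB in hypoxia, with an FPKM quotient of DDIT4 to RHEB of 1.68, and slightly below it in normoxia, with a quotient of 0.902. The quotient was 1.86-fold higher in hypoxia (1.71 to 2.02). That of RHEB to TSC2 was 2.70 in hypoxia and 2.75 in normoxia, a change of 0.983 (0.907 to 1.07).

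The mTORC1 subunit and the bound inhibitors had ratios close to 1. RPTOR (chromosome 17) had 1327 counts in hypoxia and 1235 in normoxia, giving a ratio of 1.01 (0.932 to 1.09). DEPTOR (chromosome 8) had 464 and 430 counts, a ratio of 1.01 (0.886 to 1.16). AKT1S1 (chromosome 19), the substrate of AKT that binds RPTOR, had 1436 and 1438 counts, a ratio of 0.937 (0.870 to 1.01), the lowest of the 10. On the FPKM scale RPTOR stood at 10.2 in both libraries, DEPTOR at 9.53 in hypoxia and 9.49 in normoxia, and AKT1S1 at 25.2 and 27.1. The ratio of DEPTOR to RPTOR changed 1.00-fold (0.860 to 1.17) and that of AKT1S1 to RPTOR 0.929-fold (0.834 to 1.04). For these 3 genes, and for TSC1, TSC2, RHEB, SESN2 and SESN3, the interval lay wholly within 1.5-fold either way, 8 of the 10 genes.

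**Figure D2:**
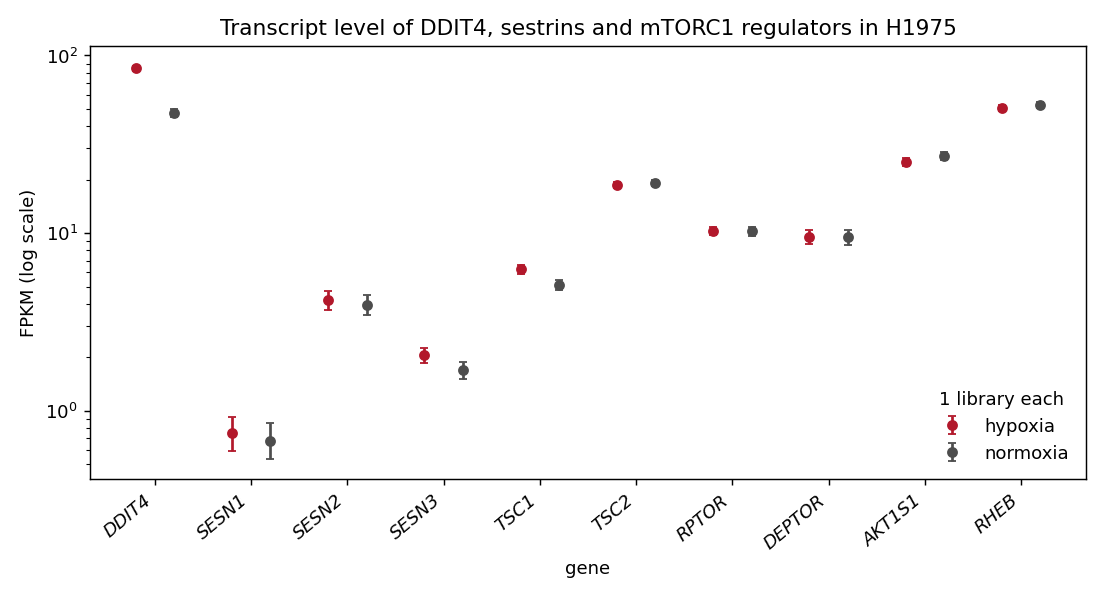
FPKM of each gene (y axis, log scale) in the hypoxia library (red, left) and the normoxia library (grey, right), 1 library each. Bars are exact Poisson 95% intervals of the count. DDIT4 is at 84.5 in hypoxia and 47.2 in normoxia, RHEB is the next most abundant at 50.5 and 52.3, and SESN1 is the lowest at 0.745 and 0.679.

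By FPKM the order in hypoxia, high to low, was DDIT4, RHEB, AKT1S1, TSC2, RPTOR, DEPTOR, TSC1, SESN2, SESN3 and SESN1. In normoxia RHEB came before DDIT4 and the rest of the order was the same. RPTOR and DEPTOR were the only neighbours with overlapping Poisson intervals, and they overlapped in both libraries. The highest level was 114 times the lowest in hypoxia and 77.1 times in normoxia. Most of this range lies between genes, not between the libraries.

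Grouped by role, 6 of the 8 inhibitors of the pathway had a log2 ratio above 0 (DDIT4, the 3 sestrins, TSC1 and DEPTOR), and 1 of the 8 was called. Of the 2 positive regulators RPTOR was at 0.01 and RHEB at -0.04 on the log2 scale. Over all 10 genes 7 were above 0, with a median log2 ratio of 0.05. Among all genes past the filter 50.7% were above 0, with a median of 0.00. The interval of 3 of the 10 lay above 0 (DDIT4, TSC1 and SESN3) and of 0 below, against 15.0% of all genes above and 14.0% below. At any size, then, intervals that exclude 0 are common in these libraries.

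**Figure D3:**
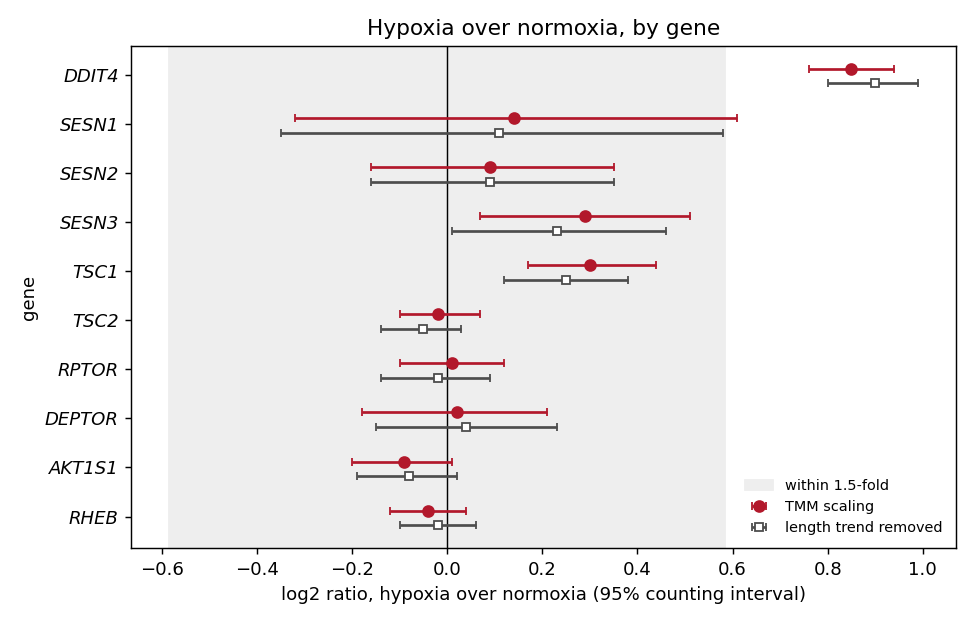
Log2 ratio of hypoxia over normoxia (x axis) for each gene, with its 95% counting interval. Filled circles are TMM-scaled counts and open squares the same with the trend on gene length removed, and the shaded band is 1.5-fold either way. DDIT4 lies outside the band in both, at 0.85 and 0.90, while TSC1 and SESN3 lie above 0 inside it.

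Gene length moved with the ratios across the table. Among genes counted at least 100 times in each library the median log2 ratio was -0.05 for the 1735 genes shorter than 2000 bases and 0.06 for the 1658 genes of 8000 bases or more. TSC1 and SESN3 are long, at 8993 and 9967 bases in the FPKM table. With the length trend removed, their log2 ratios were 0.25 (0.12 to 0.38) and 0.23 (0.01 to 0.46), against 0.30 (0.17 to 0.44) and 0.29 (0.07 to 0.51) before. Of the genes of 8000 bases or more, 81 had a higher log2 ratio than TSC1 and 93 had a higher one than SESN3. DDIT4 is short, and its value moved the other way, to 0.90 (0.80 to 0.99).

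Overlapping genes can share reads, and the sources used here do not state whether strand was used in the counting. In RefSeq, TSC2 overlaps PKD1 by 784 bases, AKT1S1 overlaps TBC1D17 by 655 bases and SESN1 overlaps ARMC2 by 68732 bases. PKD1 had a log2 ratio of 0.03 (-0.06 to 0.11), TBC1D17 one of -0.02 (-0.19 to 0.14) and ARMC2 one of -0.22 (-0.85 to 0.41). SESN3, RHEB, RPTOR and DEPTOR overlap RefSeq genes that are not among the counted genes. For SESN3 this is the noncoding LOC100129203, by 2290 bases. No listed gene overlaps DDIT4, TSC1 or SESN2.

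The other genes of the pathway were read from 9 lists that cover the mTOR complexes, the TSC and RHEB relatives, the Rag and Ragulator, GATOR and sensor branches, the PI3K and LKB1 inputs, and the substrates. Of the 81 genes found, 77 passed the filter and 0 were called in either direction, where the rule called 1.21% of all genes higher and 1.12% lower. Their log2 ratios ran from -0.32 (TFEB) to 0.36 (RRAGB), with a median of 0.02. The intervals of 13 lay above 0 and of 11 below, 16.9% and 14.3% of the 77, close to the shares of all genes. The interval of 72 lay wholly within 1.5-fold. None of the 77 had a log2 ratio as large as that of DDIT4.

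Among the complex subunits, the kinase MTOR had 1507 counts in hypoxia and 1351 in normoxia, giving a log2 ratio of 0.07 (-0.04 to 0.17). MLST8, the shared subunit that stabilizes the kinase, was at -0.20 (-0.31 to -0.09), and RICTOR, which defines mTORC2, at 0.01 (-0.12 to 0.14). The extremes of this list were PRR5L at 0.26 (-0.22 to 0.76) and PRR5 at -0.22 (-0.51 to 0.06), both with intervals that hold 0. RHEBL1, a RHEB paralogue, was at -0.12 (-0.52 to 0.28).

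In the amino acid branch, the Rag GTPases RRAGB and RRAGA were at 0.36 (0.04 to 0.67) and 0.15 (0.02 to 0.28) on the log2 scale. The Ragulator subunit LAMTOR4 was the lowest at -0.22 (-0.34 to -0.11). The GATOR2 subunits, which the sestrins bind, ran from -0.08 (WDR24) to 0.10 (SEH1L), with every interval of the 5 holding 0. The 7 genes of GATOR1 and KICSTOR, which restrain the Rag GTPases, ran from -0.06 (NPRL3) to 0.15 (KICS2), and all 7 intervals held 0. Among the sensors, CASTOR1 was at 0.10 (-0.34 to 0.53), and the folliculin partners FNIP2 and FNIP1 marked the ends of the list at 0.18 (-0.08 to 0.43) and -0.13 (-0.31 to 0.05).

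Among the growth factor and energy inputs, the kinase AKT2 was the lowest of its list at -0.23 (-0.34 to -0.11). AKT1, the kinase that phosphorylates AKT1S1 and TSC2, was at -0.03 (-0.08 to 0.03). STK11 (LKB1), which activates AMPK, was at -0.12 (-0.19 to -0.05), and its partner STRADB was the highest of that list at 0.25 (0.07 to 0.43), with STRADA the lowest at -0.12 (-0.28 to 0.03). Of the mTORC1 substrates and effectors, the translation repressor EIF4EBP1 was at -0.23 (-0.36 to -0.10) and its paralogue EIF4EBP2 at 0.18 (0.10 to 0.25). PDCD4, an inhibitor of translation, was the highest at 0.21 (0.12 to 0.31), and the lysosomal factor TFEB the lowest at -0.32 (-0.62 to -0.01). The autophagy kinase ULK1 was at 0.13 (0.03 to 0.24).

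**Figure D4:**
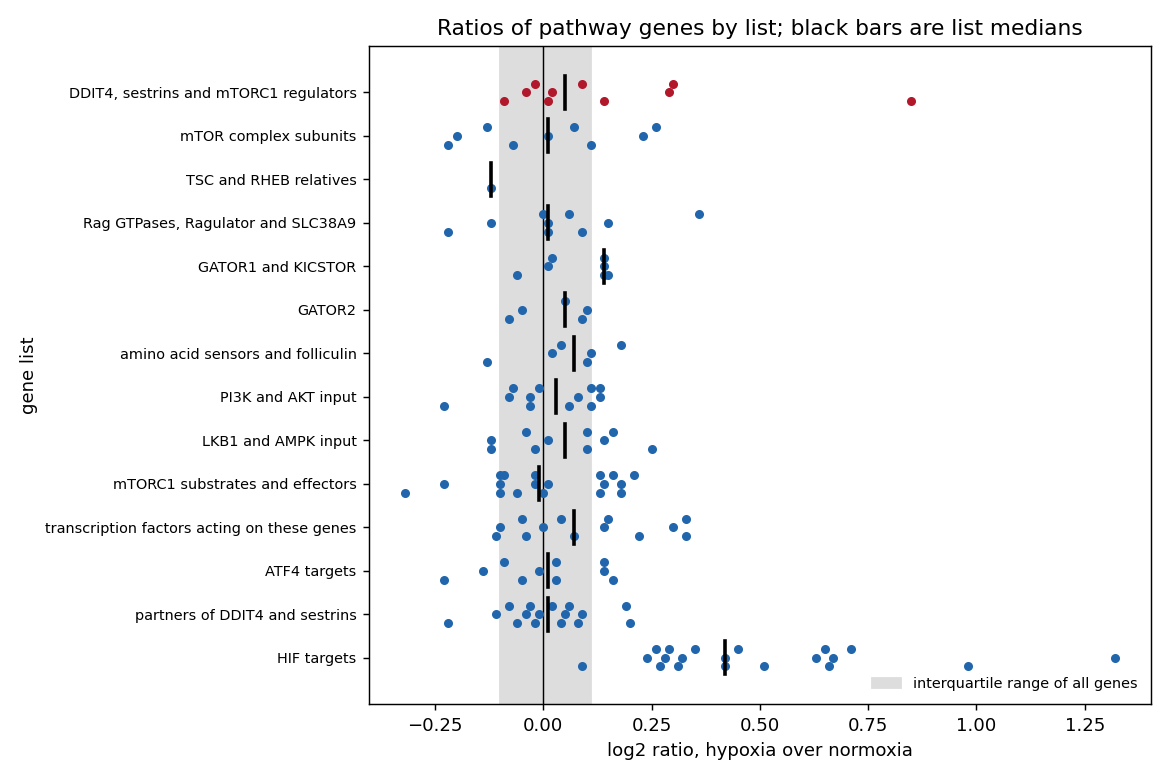
Log2 ratio of hypoxia over normoxia (x axis) of each gene past the filter, by list (rows), with the 10 genes in red at the top and the black bars at list medians. The shaded band is the interquartile range of all genes. The HIF targets in the last row have a median of 0.42, while the medians of the mTORC1 pathway lists lie between -0.12, for a list of 1 gene (0.23 over 2 genes with no filter), and 0.14.

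The transcription factors known to act on DDIT4 and the sestrins were read beside them. HIF1A had a log2 ratio of -0.05 (-0.09 to -0.00), EPAS1 of -0.04 (-0.10 to 0.02) and ATF4 of -0.10 (-0.16 to -0.05). The glucocorticoid receptor NR3C1, which activates DDIT4, was at 0.22 (0.14 to 0.31). The FOXO factors lay together at the upper end, with FOXO3 at 0.33 (0.22 to 0.44), FOXO4 at 0.30 (0.07 to 0.53) and FOXO1 at 0.33 (-0.12 to 0.79). CEBPB was the lowest of this list at -0.11 (-0.20 to -0.02). None of the 13 was called. These are ratios of mRNA, which do not measure the activity of the factors. The part of the factors in the ratios of DDIT4 and the sestrins was not tested.

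Other targets of HIF and of ATF4 were read as lists, and the part of either factor in the DDIT4 ratio was not tested. Of the 20 HIF targets 7 were called higher and 0 lower (NDRG1, ANKRD37, SLC2A1, HK2, VEGFA, BNIP3 and EGLN3), where the rule called 1.21% of all genes higher and 1.12% lower. Their median log2 ratio was 0.42, against 0.00 for all genes. Of this list NDRG1 at 1.32 and ANKRD37 at 0.98 (lower bound 0.47) had higher log2 ratios than DDIT4, and the glycolytic enzyme ENO1 was the lowest at 0.09 (0.07 to 0.10). The wider set that the authors annotated to the response to hypoxia, without DDIT4, was mixed. Of its 113 genes past the filter 67 were above 0 and 46 below, with a median of 0.05. The rule called 6 of these 113 higher and 2 lower (HSD11B2 and WTIP). Besides SESN2 and DDIT4, the 10 ATF4 targets had a median of 0.01 and 0 calls, from PHGDH at -0.23 (-0.36 to -0.10) to CHAC1 at 0.16 (-0.31 to 0.63). TRIB3, a pseudokinase induced by ATF4, was at 0.03 (-0.04 to 0.11).

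Of 16 genes whose proteins bind DDIT4 or the sestrins or control their stability, 0 were called, and their median log2 ratio was 0.01. TXNIP, which binds DDIT4, had 12337 counts in hypoxia and 10928 in normoxia, giving a log2 ratio of 0.08 (0.05 to 0.12). CUL4A, a scaffold of the ubiquitin ligase that degrades DDIT4, was the highest at 0.20 (0.10 to 0.30), and the deubiquitinase USP2 the lowest at -0.22 (-0.96 to 0.51). SQSTM1, a sestrin partner in autophagy, was at -0.11 (-0.15 to -0.07).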

How the data were processed

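RNA-seq counts per gene for 2 H1975 libraries, hypoxia and normoxia, were used as the authors deposited them, for 15562 genes. The FPKM that the authors deposited equal these counts divided by the table total and a gene length, and 100% of these lengths came out whole to 0.01 bases. The tools HISAT2, HTSeq, Cufflinks, Trimmomatic and Bowtie and the build GRCh38 are listed, per the submitters' processing notes, without versions or roles. Per the labels' protocols, RNA came from TRIzol extracts and a stranded mRNA kit. The miRNA tables were not used here, and some genes that the naming rule reached are not reported.

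Counts were scaled by TMM (edgeR 4.0.16, R 4.3.3). The filter kept the 12725 genes that reached a scaled CPM of 1 in either library, with all 10 genes described among them. Ratios of hypoxia to normoxia have exact conditional (Clopper-Pearson) 95% intervals, and pairs of genes the exact conditional interval of the odds ratio (scipy 1.17.1). With 1 library a group no p-value was computed. A gene was called at a ratio of 1.5 or more either way with an interval excluding 1. All intervals cover counting error only. The ratio and calling steps were tested on simulated counts.

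The 10 genes and the pathway lists were chosen with earlier results of these data known. Named from each list were its called genes, otherwise its extremes, and further genes for their role after their values were seen, as were the genes above DDIT4 in abundance-limited orders. The genes most like DDIT4 were the 3 just above and 3 just below it in log2 ratio among genes counted at least 100 times in each library. Coordinates and start-site windows are from RefSeq GRCh38.p14, in which all 10 genes matched by Entrez identifier. Windows of genes on the minus strand read along the gene, as 2819 of 2819 overlapping window pairs on opposite strands showed.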

Additional observations from a re-analysis of the deposited data

How the results depend on the processing

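Upper quartile scaling, total counts, DESeq2 1.42.0 size factors, no filter, FPKM with a pseudocount of 0.1 and removal of the length trend (a smooth trend of span 0.3, chosen after seeing the data) left the log2 ratios of the 10 genes within their counting intervals and the counts of calls within 1.5-fold. Some values near 0 changed sign. With no filter the median of the TSC and RHEB relatives was 0.23 in place of -0.12, since TBC1D7 joins RHEBL1. Requiring a CPM of 5 moved the medians of the mTOR complex subunits and of the ATF4 targets, both 0.01, to -0.03. With the length trend removed RPTOR was at -0.02 in place of 0.01, and the medians of the mTOR complex subunits (-0.05), the PI3K and AKT input (-0.01), the mTORC1 substrates (0.01) and the annotated mTOR pathway (-0.02) changed sign. Over the scalings and filters the log2 ratio of DDIT4 ran from 0.84 to 0.85, that of TSC1 from 0.29 to 0.30 and that of SESN3 from 0.28 to 0.29. Over the whole table, 154 genes were called higher and 143 lower. With FPKM and a pseudocount of 1 these were 33 and 18, and with a filter at a CPM of 5 they were 57 and 28. With a ratio of 2 they were 60 and 56, and with an interval excluding 1 at any size 1910 and 1787. Of the 10 genes, 1 was called higher in the main analysis, 0 with a ratio of 2 and 3 at any size. Of the pathway list genes, HIF targets included, 7 were called higher and 0 lower in the main analysis, 1 higher with a ratio of 2, and 45 higher and 18 lower at any size. A pseudocount or filter acts on genes with few reads. No paired analysis was possible because each group has 1 library, and for the same reason no library could be left out. Depth limits SESN1 most among the 10 genes, with 86 counts in hypoxia and 73 in normoxia.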

Other observations

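The authors' tables annotate genes to pathways and terms, and these annotations give lists that were not drawn up for this purpose, although they were chosen here after the data had been seen. Of 120 genes annotated to mTOR signaling that passed the filter, leaving out any of the 10 described above, 0 were called higher and 1 lower, where the rule called 1.21% of all genes higher and 1.12% lower. Their median log2 ratio was 0.01. The 1 call was the Wnt receptor FZD8, with 11 counts in hypoxia and 23 in normoxia. Of 28 genes annotated as negative regulators of TOR signaling, 20 had a log2 ratio above 0, with a median of 0.05, 0 calls, and intervals above 0 for 1 (the DNA damage kinase ATM at 0.22, 0.05 to 0.40) and below 0 for 2 (STK11 and HIF1A). Of 32 positive regulators 17 were above 0, with a median of 0.01 and 0 calls.

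The V-type ATPase is the lysosomal proton pump through which amino acids reach mTORC1. Its subunits in the mTOR annotation were all ATP6V1 genes. They had a median of 0.05 over 11 genes, 7 above 0 and 4 below, and 0 calls. The extremes were ATP6V1C2 at 0.32 and ATP6V1B1 at -0.61. The intervals of 2 lay above 0, among them ATP6V1B2 at 0.21 (0.10 to 0.33), and that of 1 lay below. The ATP6V0 genes of the same pump are outside this list. Those past the filter ran from -0.21 (ATP6V0E2) to 0.06 (ATP6V0E1), so the median does not describe the whole pump. The chains of the leucine transporter differed in sign, SLC7A5 at 0.15 (0.09 to 0.21) and SLC3A2 at -0.15 (-0.23 to -0.08). The Wnt ligands, receptors and Dishevelled genes in the mTOR annotation lay lower, with 13 of 19 below 0 and a median of -0.09. The interval of 8 of the 19 lay below 0, 42.1%, where that of 14.0% of all genes did. Among these were the Wnt receptors FZD6, with 326 counts in hypoxia and 404 in normoxia and a log2 ratio of -0.40 (-0.62 to -0.19), and FZD9, with 95 and 131 and a ratio of -0.56 (-0.95 to -0.16) on the log2 scale. WNT9A was at 0.21 (0.10 to 0.33).

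Near-identical copies were set beside 2 of the genes next to DDIT4 in log2 ratio. In hypoxia C4A had 611 counts, against 349 in normoxia, a ratio of 1.64 (1.44 to 1.88), while C4B had 503 in hypoxia and 404 in normoxia, a ratio of 1.17 (1.02 to 1.33). In hypoxia EIF3CL had 219 counts, against 121 in normoxia, a ratio of 1.70 (1.35 to 2.14), while EIF3C had 693 in hypoxia and 683 in normoxia, a ratio of 0.952 (0.855 to 1.06). The sources used here do not state how reads were divided between such copies.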
